A study of Mus musculus with 40 samples.

Results

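Synaptoneurosome RNA was compared with the RNA of whole homogenate in RBP4-TRAP mice, in 10 of the 40 libraries of the series. The 5 synaptoneurosome libraries (SNF) came from a band of a sucrose and Percoll gradient, and the 5 control libraries (WCH) from an aliquot of the homogenate before fractionation. Neither group was affinity purified. The members were taken from the labels alone, as all libraries of these 2 groups with replicate numbers 1 to 5. All 10 libraries came from mice of the strain labelled Rbp4 TRAP at 21 d after birth, each replicate being a pool of forebrains of both sexes, with SNF and WCH drawn from the same pool. These mice carry a Cre driver for layer 5 pyramidal cells and a Cre-dependent transgene for a GFP-tagged ribosomal protein, but SNF and WCH hold the RNA of all cells and so do not depend on the tag. The labels give cortex as the tissue, whereas the methods describe dissected forebrain, and markers of striatal neurons such as Drd1 and of choroid plexus such as Ttr were detected in every library.

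Synaptoneurosomes are resealed pinched-off synaptic terminals and spines that form when brain tissue is gently homogenized, and they carry the mRNAs, ribosomes and mitochondria of neurites. The fraction is used as a source of locally translated mRNA. mRNAs of secreted and membrane proteins are translated on ribosomes attached to the endoplasmic reticulum, while those of cytosolic and nuclear proteins are mostly translated on free ribosomes. Homogenate holds nuclei with nascent and nuclear-retained RNA, and the fine processes of astrocytes and other glia surround synapses and can be carried along with them.

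Library totals were 14433907 to 19485322 counts in SNF and 16325474 to 17925415 in WCH. Genes of the mitochondrial chromosome, which were left out of all tests, took 11.2% to 40.2% of the counts in SNF and 2.01% to 10% in WCH. SNF replicate 3 stood apart with the share of 40.2%, against at most 18.8% in the other 4 SNF libraries, and had the highest summed level of astrocyte markers. SNF replicate 5 lay nearest to WCH, with a median Spearman correlation of 0.964 with the WCH libraries against 0.924 to 0.953 for the other 4. Levels below are cpm scaled with edgeR's TMM factors, and changes are log2 fold changes of SNF against WCH from edgeR's quasi-likelihood test with the pool as a block. A gene is called higher or lower at a Benjamini-Hochberg adjusted p of at most 0.05.

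About as many genes were higher as lower. Of 16376 genes tested, 4223 were higher in SNF (25.8% of the genes tested) and 4057 were lower (24.8%). With TMM, rises were larger than falls, with 2725 genes higher by at least 2-fold against 571 lower by at least 2-fold, and 99 against 21 at 4-fold. In 2868 genes (17.5%) every SNF library lay above every WCH library, and in 2183 genes (13.3%) every one lay below. The median change of all genes was -0.15. Library size alone, without TMM, shifted every change by about -0.37, which left 3099 genes higher (18.9%) and 7614 lower (46.5%; 28.9% of the calls being higher, against 51.0% with TMM). The 3099 genes were all among the 4223 and all 4057 lower genes were lower in that scaling too, and 0 genes were called in opposite directions. Without pool 3, 3986 genes were higher and 3499 lower, and without pool 4 the number of lower genes was 2589.

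**Figure D1:**
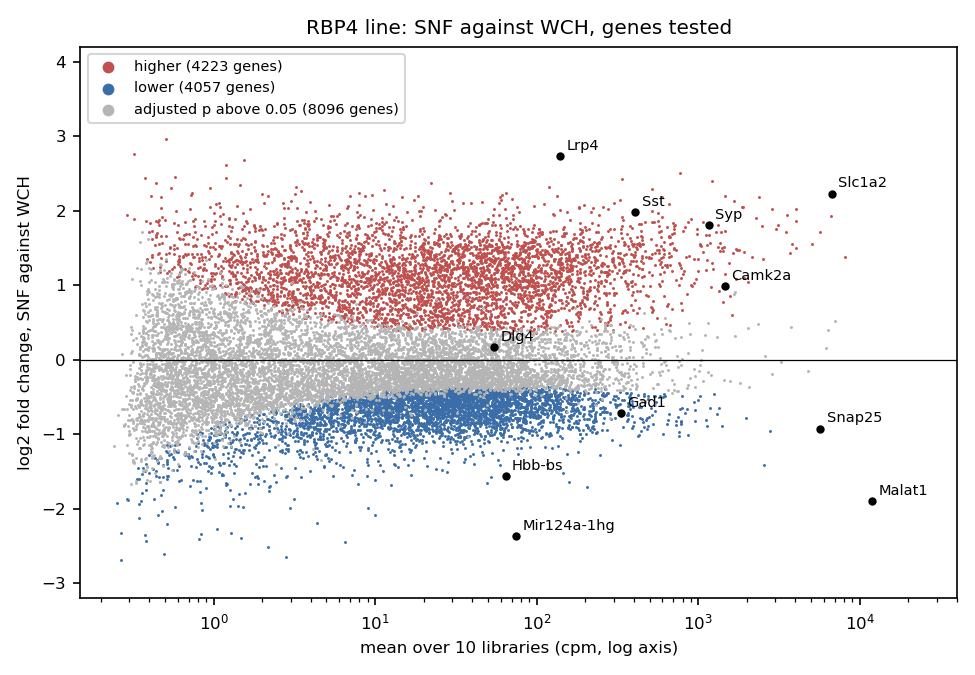
Log2 fold change of SNF against WCH (vertical axis) for the 16376 genes tested, against the mean level over the 10 libraries in cpm (horizontal log axis). The 4223 genes called higher form a broad band around a change of 1, and the 4057 genes called lower a narrower band nearer 0, with Malat1 and Mir124a-1hg far below it.

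The largest rises, of those where the mean was 5 cpm or more and the groups did not overlap, included genes known from astrocytes, such as Slc1a2 and Sparc, and genes of secreted proteins, such as Vtn and Pcolce. Lrp4 (chromosome 2, 91457511 to 91513779, GRCm38), a receptor of the LDL receptor family, was at 211, 215, 483, 166 and 118 cpm in SNF replicates 1 to 5 and at 11.8, 44.4, 75.1, 13.6 and 60.5 cpm in WCH. Each SNF library was above all WCH libraries, although WCH itself ranged widely, giving a difference of 2.74 ± 0.35 (± standard error, here and below; edgeR adjusted p = 4.22e-05), or 6.67-fold. Slc1a2 (chromosome 2, 102658659 to 102790784), the main glutamate transporter of astrocytes, was at 9971, 7898, 22567, 9077 and 6669 cpm in SNF and at 2112, 1521, 3285, 1739 and 2577 cpm in WCH. The lowest SNF library held more than double the highest WCH library, the third SNF replicate held by far the most, and the change was 2.23 ± 0.24 (edgeR adjusted p = 2.95e-05). The heparan sulfate proteoglycan gene Sdc4 changed by 2.51, Scd1, which encodes a fatty acid desaturase of the endoplasmic reticulum, by 2.42, and Sparc, a secreted matrix protein of glia, by 2.40. Sfxn5, a mitochondrial carrier, changed by 2.29, the secreted glycoprotein gene Vtn by 2.24, the cell junction protein gene Amot by 2.24, the procollagen processing factor Pcolce by 2.24 and Myom3, known from the sarcomere of muscle, by 2.21. In SNF replicate 3 Lrp4, Sdc4, Sparc, Sfxn5, Slc1a2 and Myom3 were well above the other SNF libraries. All 10 genes were also called higher without pool 3.

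The largest falls under the same rule included noncoding RNAs and globins. Mir124a-1hg (chromosome 14, 64587331 to 64593961), the host transcript of the neuronal microRNA miR-124, was at 35, 28.3, 6.3, 18.2 and 49.2 cpm in SNF and at 141, 148, 106, 138 and 78.2 cpm in WCH. SNF was below WCH in every pool by a wide margin, with the lowest level in replicate 3, and the transcript fell by 2.37 ± 0.34 on the log2 scale (edgeR adjusted p = 8.05e-05). Malat1 (chromosome 19, 5795690 to 5802672), a long noncoding RNA kept in nuclear speckles, was at 6263, 4726, 1794, 3996 and 11511 cpm in SNF and at 29329, 16860, 15795, 15822 and 12820 cpm in WCH. It fell by 1.89 ± 0.35 on the log2 scale (edgeR adjusted p = 0.000526), and SNF replicate 5 came close to the lowest WCH library. Miat, another nuclear noncoding RNA, fell by 1.57 on the log2 scale, and the gene annotated as Snora43 fell by 1.48, where the counts cover 2465 bases of exon and so are not those of the small nucleolar RNA alone. The beta globin genes Hbb-bt and Hbb-bs changed by -1.68 and -1.56, and the alpha globin gene Hba-a2 by -1.43. The remaining genes were Rsrp1, which encodes an arginine and serine rich nuclear protein (-1.71), the ubiquitin ligase component Wsb1 (-1.65) and the replication kinase Cdc7 (-1.54). Globin genes are near-identical copies, and counts may be split among them.

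**Figure D2:**
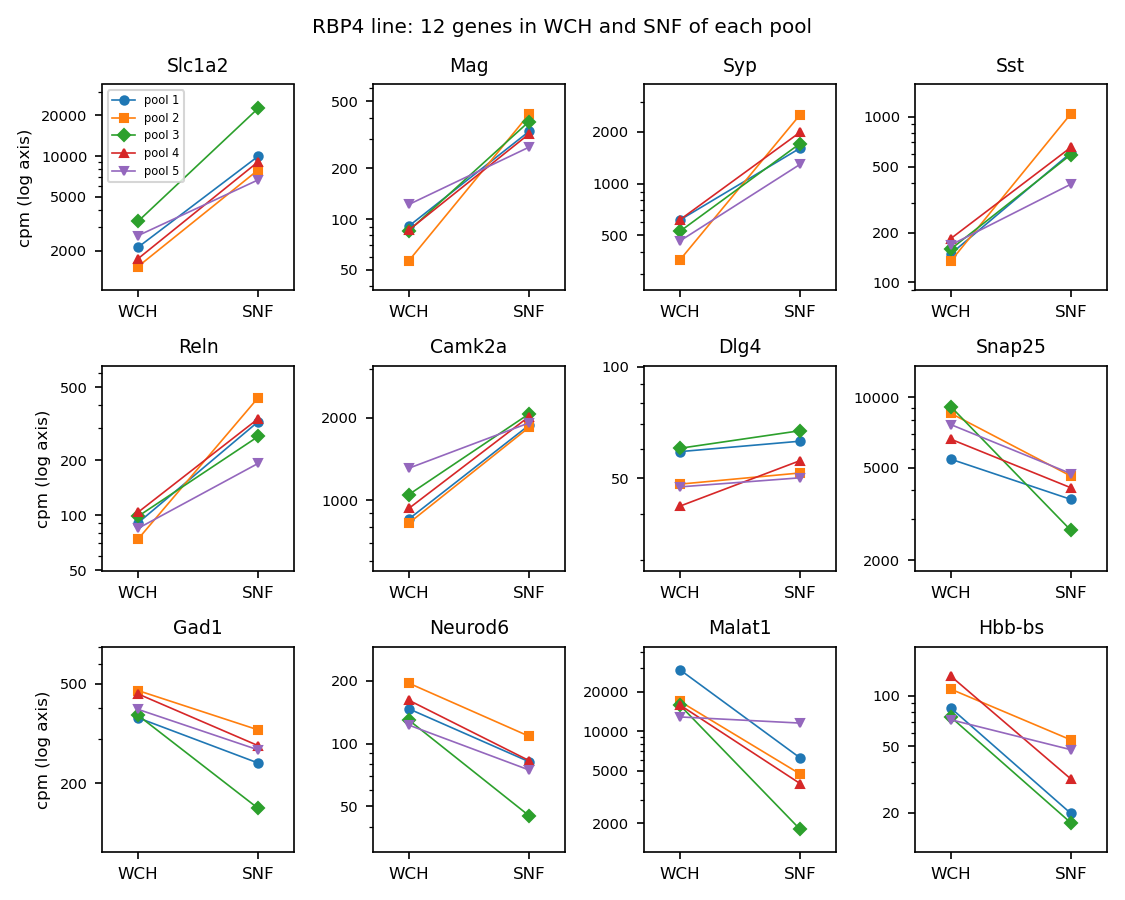
Levels in cpm (log axes) of 12 genes in WCH and SNF, 1 line per pool. Slc1a2, Mag, Syp, Sst, Reln and Camk2a rose in all 5 pools without overlap of the groups, Snap25, Gad1, Neurod6, Malat1 and Hbb-bs fell in all 5, and Dlg4, although higher in SNF in each pool, overlapped between the groups (change 0.17, edgeR adjusted p = 0.326).

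Protein-coding genes divided by the kind of protein they encode. For 14351 genes tested, the protein was translated from 1 coding transcript in GENCODE M21 and searched for hydrophobic segments. Transcripts with a complete coding sequence came first, then those ranked as principal in the APPRIS annotation, then the longest coding sequence. Segments are windows of 19 residues with a mean Kyte-Doolittle hydropathy of at least 1.6, as are typical of membrane-spanning helices and of signal peptides. This property was chosen after the changes had been seen, so that the shares are descriptions. Among the 9029 genes with 0 such segments, 11.1% were higher in SNF and 35.4% lower, with a median change of -0.33. Among the 819 genes with 1 segment, located in the first 40 residues as in a signal peptide, 71.1% were higher and 3.05% lower (median 1.06). Among the 1855 genes with 2 to 5 segments 70.2% were higher and 4.37% lower (median 1.02), and among the 716 genes with 6 or more 78.4% were higher and 0.978% lower (median 1.09). The 1932 genes with 1 segment elsewhere in the protein were intermediate, with 34.3% higher and 20.4% lower (median 0.07). Read the other way, 75.6% of the higher genes with a predicted protein had at least 1 segment, against 13.7% of the lower genes and 37.1% of all.

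The separation of these classes was present in each pool. The median of genes with 2 to 5 segments exceeded that of genes with 0 by 0.792 to 1.6 in the 5 pools, and that of genes with 6 or more by 0.808 to 1.71. It does not depend on the scaling, since a shift moves both classes alike. With library size alone 57.8% of the genes with 2 to 5 segments were still higher and 9.97% lower, against 5.96% and 63.6% of the genes with 0. The prediction is crude. Sparc and Rbp4, which encode secreted proteins, and C1qb had 0 segments by this measure, and Camk2a, which encodes a soluble kinase, had 1. Other features of the transcripts tracked the change less closely across genes, which are not independent replicates. Spearman's correlation with the change was 0.525 for the number of segments, 0.216 for the GC content of the coding sequence and 0.214 for that of the 3' UTR, and 0.00501, -0.0199 and 0.0127 for the length of the 3' UTR, of the protein and of the exons.

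**Figure D3:**
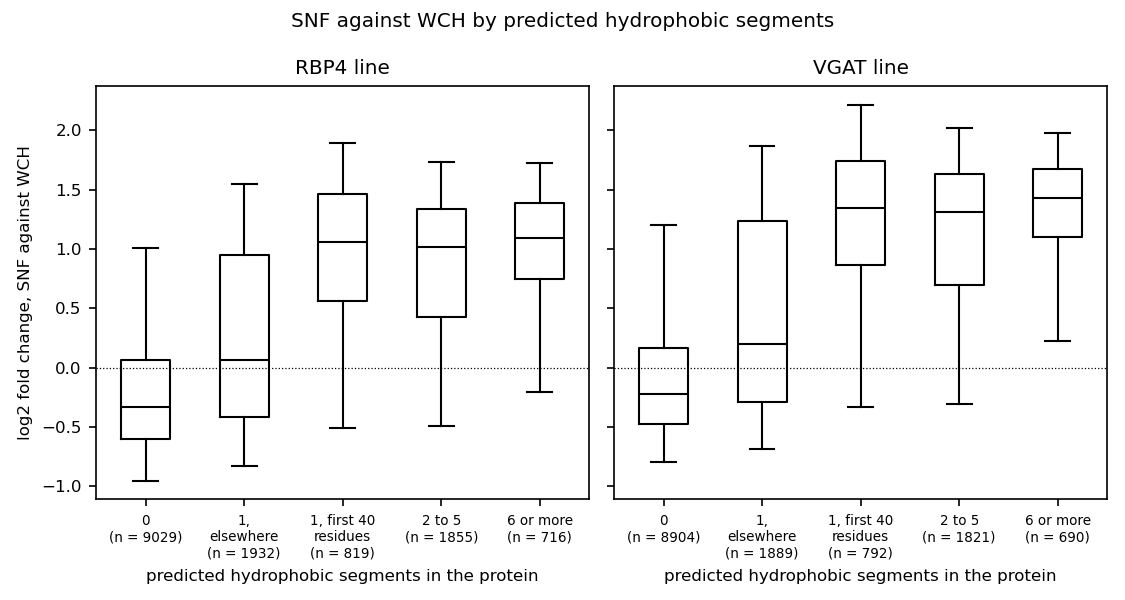
Log2 fold change of SNF against WCH by the number of predicted hydrophobic segments in the encoded protein, in the RBP4 line (left) and the VGAT line (right); boxes give quartiles, the line inside the median, and whiskers the 5th and 95th percentiles over genes. The medians of the RBP4 line rise from -0.33 at 0 segments to 1.06, 1.02 and 1.09 in the 3 classes on the right, and those of the VGAT line from -0.22 to 1.35, 1.31 and 1.43.

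Markers of GABAergic interneurons showed this division among themselves. SNF and WCH were not affinity purified, so the cells that gave these RNAs were not held constant. Of the 20 markers, 10 were higher, 7 lower and 3 not called (median 0.32). Of the 11 markers with a predicted segment 10 were higher and 0 lower, and of the 9 without one 0 were higher and 7 lower. Codons with T in the middle position encode hydrophobic residues, and the start of the coding sequence is shown as an illustration. The 6 genes were picked with their changes and segments known, so that the contrast between their sequences follows from the choice, and Slc32a1, Cort and Dlx5 are not shown. The following are the most hydrophobic 10 codons among the first 35 in mRNAs that were higher in SNF (Sst, Npy and Reln) and lower in SNF (Gad1, Gad2 and Pvalb), with codons that have T in the middle in capitals, from GENCODE M21 transcripts (GRCm38).
Sst, codons 10 to 19 (chr16:23890688-23890717, minus strand): CTGgctgcgCTCtgcATCGTCCTGgctTTG
Npy, codons 16 to 25 (chr6:49823643-49823672, plus strand): CTAtctCTGCTCGTGtgtTTGggcATTCTG
Reln, codons 11 to 20 (chr5:22344349-22344378, minus strand): CTCGTCCTGgccGTGCTGCTGCTGCTGgcg
Gad1, codons 26 to 35 (chr2:70563907-70567211 with an intron, plus strand): acaacgtatgatacttggtgtggcGTAgcc
Gad2, codons 24 to 33 (chr2:22622732-22623458 with an intron, plus strand): ggcacagcgagagcgtggtgccagGTGgcc
Pvalb, codons 16 to 25 (chr15:78202640-78204100 with an intron, minus strand): ATAggagccTTTgctgctgcagactccTTC
The windows of Sst, Npy and Reln, which lie in the signal peptides of secreted proteins, held 6, 7 and 8 such codons with a mean hydropathy of 3.18, 2.90 and 3.48. Those of Gad1, Gad2 and Pvalb held 1, 1 and 3, with a mean hydropathy of 0.030, 0.21 and 1.26.

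Sst (chromosome 16, 23889581 to 23890844), which encodes the peptide somatostatin, was at 607, 1044, 591, 654 and 392 cpm in SNF and at 148, 134, 159, 184 and 168 cpm in WCH. Every SNF library held more than double any WCH library, and Sst rose 3.96-fold (log2 change 1.98 ± 0.22, edgeR adjusted p = 2.95e-05). Reln, which encodes a large secreted matrix protein, rose from 90.1 ± 11.7 to 312 ± 91.1 cpm (SD, n = 5 each; log2 change 1.75). The vesicular GABA transporter gene Slc32a1, the neuropeptide gene Npy and the neuropeptide gene Cort rose by 1.67, 1.6 and 1.5. The genes for the GABA-synthesizing enzymes moved the opposite way. Gad1 (chromosome 2, 70553072 to 70602014) was at 241, 327, 159, 283 and 272 cpm in SNF and at 365, 470, 374, 455 and 395 cpm in WCH, with no overlap, and fell by 0.72 ± 0.17 on the log2 scale (edgeR adjusted p = 0.00305). Gad2 changed by -0.65, the transcription factor gene Dlx5 by -0.95 and Pvalb, a calcium buffer of fast-spiking interneurons, by -0.55 (edgeR adjusted p = 0.0359). The groups overlapped for Pvalb and its call was lost without pool 1, pool 2 or pool 4 (edgeR adjusted p = 0.16, 0.0814 and 0.127). With 1 pool left out 10 interneuron markers were higher each time, while the number of lower ones was 3 without pool 1 or 4, 4 without pool 2 or 5 and 6 without pool 3. It was also 4 without the pool as a block and 10 with library size alone.

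Markers of striatal projection neurons were mostly higher and those of cortical excitatory layers mostly lower. Of 15 striatal markers 10 were higher and 5 lower (median 0.93). The opioid peptide genes Pdyn and Penk changed by 1.58 and 1.57, and the dopamine receptor gene Drd1 by 0.85. The phosphatase inhibitor gene Ppp1r1b (DARPP-32) and the G protein regulator gene Rgs9, both cytosolic, changed by -0.88 and -0.89. All 3 striatal markers without a predicted segment were lower, and of the 12 with one 10 were higher and 2 lower. Of 20 markers of cortical excitatory layers only 3 were higher and 12 were lower (median -0.56). Of the 5 cortical markers with a segment 2 were higher and 2 lower, and of the 15 without one 1 was higher and 10 were lower. Ntsr1, a neurotensin receptor of layer 6, rose by 1.6 (edgeR adjusted p = 5.11e-05) and Rbp4, the secreted retinol carrier whose promoter drives Cre in this line, by 1.34. The transcription factor genes Foxp2, Neurod6 and Etv1 changed by -1.0, -0.98 and -0.96. Neurod6 (chromosome 6, 55677818 to 55681263) was at 81.9, 109, 45.1, 82.9 and 74.7 cpm in SNF against 147, 195, 130, 162 and 123 cpm in WCH, so that no library of SNF reached the level of WCH.

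Synaptic genes did not rise as a class. Of 31 presynaptic genes, 12 were higher and 11 lower (median -0.27), or 9 and 17 with library size alone. Syp (chromosome X, 7638471 to 7653256), which encodes the membrane-spanning vesicle protein synaptophysin, was at 1608, 2515, 1711, 1989 and 1294 cpm in SNF and at 614, 359, 527, 616 and 464 cpm in WCH. All SNF libraries were above double the highest WCH value, and the change was 1.81 ± 0.22 (edgeR adjusted p = 3.62e-05). The vesicle glycoprotein gene Sv2a rose by 1.68, the calcium sensor gene Syt1 by 1.56 and the vesicular glutamate transporter gene Slc17a7 by 1.49. Snap25 (chromosome 2, 136713453 to 136782428), whose product is attached to the plasma membrane by lipid anchors and not by a membrane-spanning helix, was at 3650, 4596, 2686, 4094 and 4708 cpm in SNF and at 5435, 8555, 9143, 6622 and 7652 cpm in WCH. It fell by 0.92 ± 0.23 on the log2 scale (edgeR adjusted p = 0.00395) with no overlap of the groups. Cadps, which encodes the vesicle priming protein CAPS1, had a change of -0.97. Vamp2, whose single membrane anchor lies at the end of the protein, was not called (-0.42, edgeR adjusted p = 0.0619; with library size alone -0.78, edgeR adjusted p = 0.00145). Of the 14 presynaptic genes with a predicted segment 9 were higher and 2 lower, and of the 17 without one 3 were higher and 9 lower.

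On the postsynaptic side, genes of the AMPA and NMDA classes of glutamate receptor were higher. All 14 AMPA and NMDA receptor genes tested were higher (median 1.15), and 12 of the 14 without TMM. Grin1, the obligatory NMDA receptor subunit, changed by 1.76, Grin2b by 1.20, Gria1 by 1.16 and Gria2 by 0.86. The scaffold list of 25 genes was mixed, with 7 higher, 4 lower and 14 not called (median 0.08). With TMM, its share of higher genes was near the 25.8% of all genes tested, and its share of lower genes was below 24.8%. With library size alone 10 scaffold genes were lower. The synaptic adhesion genes Nlgn2, Nlgn3 and Nlgn1, which encode membrane proteins, rose by 1.38, 1.27 and 1.18. The cytosolic scaffold genes Homer1 and Cnksr2 changed by -0.81 and -0.69. Dlg4 (chromosome 11, 70017085 to 70045532), the gene of the scaffold PSD-95, was at 62.9, 51.6, 67.1, 55.7 and 50.1 cpm in SNF and at 58.9, 48.2, 60.2, 42.0 and 47.3 cpm in WCH. SNF was the higher in 5 of 5 pools, yet the groups overlapped and the change of 0.17 ± 0.14 was not called (edgeR adjusted p = 0.326), and it turned to -0.20 with library size alone. Shank3 (chromosome 15, 89499623 to 89560261), another scaffold of the postsynaptic density, was at 25.3, 25.8, 27.5, 26.3 and 17.1 cpm in SNF and at 19.4, 9.17, 13.3, 14.5 and 12 cpm in WCH. The groups overlapped in that SNF replicate 5 lay below WCH replicate 1, and the change was 0.85 ± 0.18 (edgeR adjusted p = 0.00143). Shank1 had a larger change of 1.13.

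Of 26 mRNAs classically described in dendrites, 13 were higher and 3 lower (median 0.47, against -0.15 over all genes), or 12 and 7 with library size alone. Camk2a (chromosome 18, 60925618 to 60988152), which encodes a calcium-dependent kinase of the spine, was at 1877, 1843, 2064, 2017 and 1913 cpm in SNF and at 853, 824, 1048, 933 and 1307 cpm in WCH. Its SNF levels were nearly alike, the groups did not overlap, and it rose 1.98-fold (edgeR adjusted p = 0.000591). The kinesin gene Kif5a, a motor of axonal and dendritic transport, rose by 1.85. Fmr1, an RNA-binding regulator of translation, changed by -0.58, and the dendritic microtubule protein gene Map2 was not called (-0.02, edgeR adjusted p = 0.942). Of the 26 genes, 7 without a predicted segment were higher, among them Shank1, Shank3 and Kif5a. Among 55 kinesin and dynein genes 9 were higher and 14 lower (9 lower without pool 3 or 4, 28 with library size alone). With TMM, their share of lower genes was near the 24.8% of all genes tested, and their share of higher genes was below 25.8%.

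Voltage-gated sodium and potassium channel genes rose nearly throughout. Of 40 tested 36 were higher and 0 lower (median 1.04), and without TMM 26 were higher and 1 lower. The axonal sodium channel genes Scn8a and Scn2a changed by 1.47 and 1.36 and the potassium channel gene Kcnc1 by 1.38. Genes of the endoplasmic reticulum and Golgi followed, with 22 of 26 higher and 1 lower (median 1.41). The chaperone genes Calr, Hsp90b1 and Hspa5 rose from 236 ± 25.3 to 951 ± 391 cpm, from 223 ± 24.7 to 840 ± 276 cpm and from 240 ± 27.9 to 899.7 ± 407 cpm (SD, n = 5 each).

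**Figure D4:**
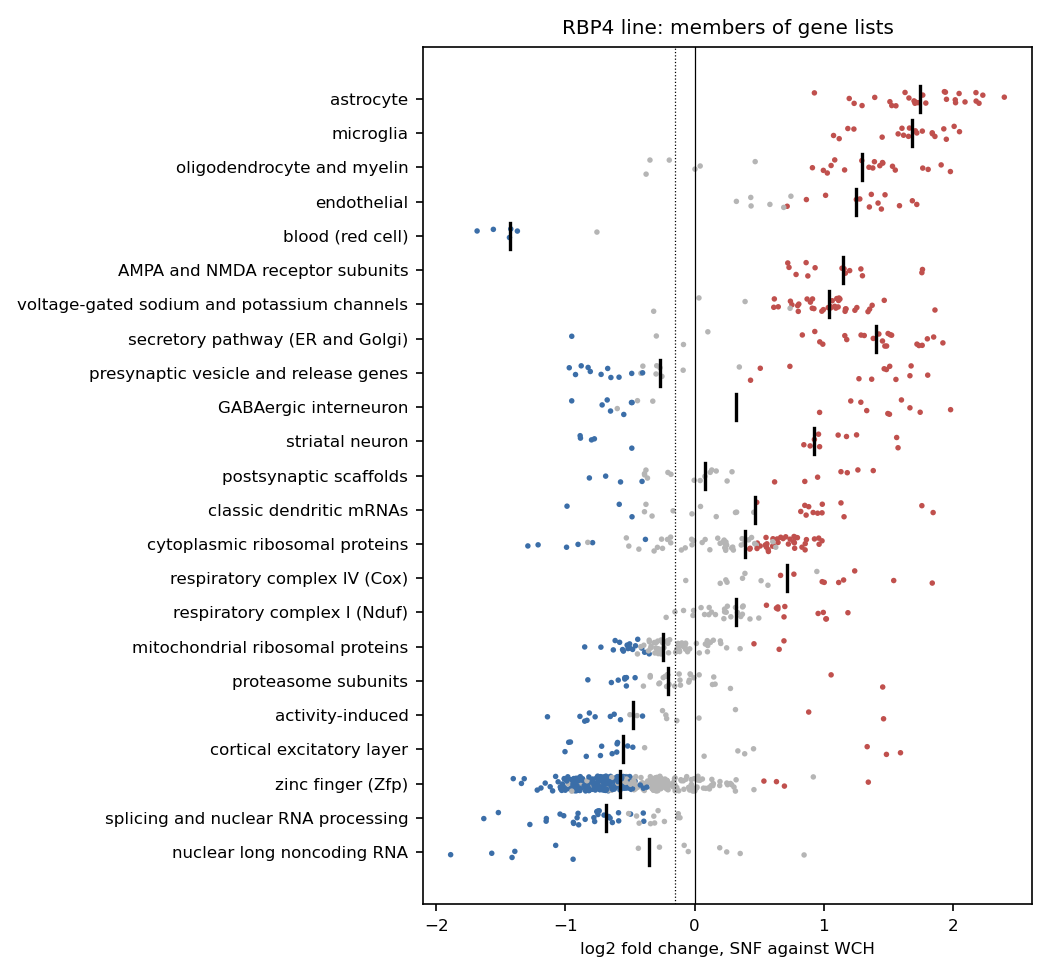
Log2 fold change of SNF against WCH for the tested members of 23 gene lists, 1 point per gene, in red where higher, in blue where lower and in grey where the adjusted p was above 0.05; black bars are list medians, and the dotted line is the median of all genes (-0.15). Members of the lists from astrocyte to secretory pathway lie mostly to the right of 0, apart from the red cell genes, splicing and zinc finger genes lie mostly to the left, and interneuron and presynaptic genes fall into separate groups on both sides.

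Markers of glia rose almost throughout. In bulk RNA of a fraction, more material of a cell type and more of the marker RNA within that material cannot be told apart. All 28 astrocyte markers were higher (median 1.75), all 20 microglia markers (median 1.69), 19 of 25 oligodendrocyte markers with 0 lower (median 1.3; 1 lower without pool 3 and 3 with library size alone) and 7 of 9 markers of oligodendrocyte precursors (median 1.46). Every SNF library lay above every WCH library for 26 astrocyte, 18 oligodendrocyte and 7 precursor markers, but for only 10 of the 20 microglia markers. The summed level of the astrocyte markers was 43533 to 105287 cpm in SNF and 9136 to 18823 cpm in WCH, with the highest value in SNF replicate 3. That of the oligodendrocyte markers was 17810 to 27984 cpm in SNF and 7511 to 10594 cpm in WCH, and that of the microglia markers 514 to 2009 cpm and 263 to 483 cpm. Without pool 3 all 28 astrocyte, all 20 microglia and 19 oligodendrocyte markers were higher. Their part in the changes of other genes was not tested.

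Astrocyte markers were higher with and without a predicted segment in their protein, and a difference from neuronal markers in this respect was not tested. The secreted protease inhibitor gene Cst3 and the lipoprotein gene Apoe changed by 2.18 each. The cytosolic enzyme gene Aldoc, an aldolase, rose from 1566 ± 621 to 6528 ± 3329 cpm (SD, n = 5 each; log2 change 2.02), the calcium-binding protein gene S100b by 1.79, the intermediate filament gene Gfap by 1.53 and the metal-binding protein gene Mt3 by 0.93. All 9 astrocyte markers without a predicted segment were higher (median 1.53), as were the 19 with one (median 1.94). All 4 microglia markers and both endothelial markers without a segment were higher too. Among oligodendrocyte markers 14 of 15 were higher where there was a segment and 5 of 10 where there was none. Mag, a myelin adhesion molecule, was at 331, 418, 379, 320 and 267 cpm in SNF against 90.9, 56.7, 85.3, 86.1 and 122 cpm in WCH. Its lowest SNF value was above double the highest WCH value, and its change was 1.98. The myelin protein gene Mbp changed by 1.91 and the iron carrier gene Trf by 1.81. Cnp, an enzyme of myelin, was not called (0.04, edgeR adjusted p = 0.842), and its change was -0.32 with library size alone. The microglial genes Laptm5, a lysosomal membrane protein, and C1qa and C1qb, of the first complement component, changed by 2.05, 2.01 and 1.95.

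Vascular markers were mostly higher and red cell genes lower. Of 19 endothelial markers 13 were higher and 0 lower (median 1.25; 7 higher in the fit of all 20 libraries of the line), with Bsg, a membrane glycoprotein of the vessel wall and other cells, changing by 1.72, while the tight junction gene Cldn5, a defining marker, was at 0.342 to 1.89 cpm in SNF and 0.390 to 0.869 cpm in WCH and was not called. Of 10 mural cell markers 5 were higher and 1 lower. Of 6 red cell genes 5 were lower and 0 higher (median -1.43), and their summed level was 34.8 to 102 cpm in SNF and 135 to 238 cpm in WCH. Of 13 markers of choroid plexus and ependyma 8 were higher and 1 lower. Ttr, the thyroid hormone carrier of the choroid plexus, was at 2180, 2931, 1424, 1023 and 1302 cpm in SNF and at 1076, 602, 428, 390 and 479 cpm in WCH, where the groups overlapped through WCH replicate 1 and SNF replicate 4.

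Genes of nuclear proteins and nuclear RNAs were mostly lower or not called. Of 40 genes of splicing and nuclear RNA processing 29 were lower and 0 higher (median -0.68). The splicing kinase gene Clk1 changed by -1.63, the splicing factor gene Srsf2 by -1.52 and Luc7l3 by -1.28. For Clk1 the SNF libraries were at 116, 71.1, 30.9, 48.4 and 156 cpm and the WCH libraries at 243, 273, 289, 141 and 224 cpm, replicate 5 of SNF lying above replicate 4 of WCH. Of 347 zinc finger genes of the Zfp family 185 were lower and 4 higher (median -0.58), or 283 and 1 with library size alone. The largest fall among them, that of Zfp263 (-1.4), was not called without pool 2 (-1.09, edgeR adjusted p = 0.0859). Of 14 long noncoding RNAs known from the nucleus 6 were lower and 0 higher (median -0.35), but 2 were higher without pool 3, and 4 were lower without pool 2. Among the other members Snhg11 fell by 1.41 with overlapping groups, and its call was lost without pool 2 (-1.22, edgeR adjusted p = 0.0638). By annotated type, 24.8% of 432 lincRNAs and 15.9% of 546 antisense genes were lower, no larger a share than the 24.8% of all genes tested, while 7.64% and 2.93% were higher, against 25.8% of all genes. The kit does not keep the strand, so that antisense transcripts and their partners cannot be told apart. Of 20 activity-induced genes 10 were lower (4 without the pool as a block) and 2 higher. The immediate early gene Egr1, a transcription factor, fell by 1.14, while Nptx2, a secreted pentraxin, rose by 1.46.

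Genes of energy metabolism were mostly not called, other than those of cytochrome oxidase, and differences between the complexes were not tested. For cytochrome oxidase (complex IV) 9 of 18 genes were higher and 0 lower (median 0.72), led by Cox6a1 at 1.84, with Cox4i1 at 1.15. For complex I 11 of 36 were higher, a share near the 25.8% of all genes, and 0 lower (median 0.32), although 5 were higher and 3 lower with library size alone, and Ndufb9 had the largest change of 1.19. Of 19 ATP synthase genes 1 was higher (5 without pool 1) and 1 lower (4 with library size alone). Of 13 genes of complexes II and III 4 were higher (2 without pool 2, 3 or 4) and 1 lower. The share of higher genes in complexes II and III was slightly above the 25.8% of all genes. The tricarboxylic acid cycle had 3 of 20 genes higher and 3 lower (1 lower without pool 4; 2 higher and 10 lower with library size alone), with Suclg2, a subunit of succinate-CoA ligase, at 1.59 and the dehydrogenase gene Idh3a at -0.61. Of 16 glycolytic genes 6 were lower (3 without pool 4) and 1 higher (2 without pool 1, 3 without pool 5), the higher one being the astrocytic Aldoc and the neuronal enolase gene Eno2 having the change of -0.64. Cox6a1, Cox4i1, Ndufb9 and Suclg2 all had their highest level in SNF replicate 3, the library with the largest mitochondrial share, and without pool 3 complex IV and complex I had 8 and 9 higher genes. Without pool 1 complex I had 17 higher genes.

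The direction of the ribosomal protein genes depended on the scaling, with 35 of 83 genes higher and 6 lower with TMM (median 0.39) but 7 higher and 16 lower with library size alone. Rplp1 and Rplp0, of the ribosomal stalk, changed by 0.99 and 0.93. The count of higher genes was 17 without pool 2, 20 without pool 3 and 29 to 44 without another pool. These genes have many processed copies, to which reads may be misassigned. Mitochondrial ribosomal protein genes had 17 of 75 lower and 3 higher (median -0.25), with Mrps22 and Mrpl3 at -0.85 and -0.73, but 7, 11 and 5 lower without pools 1, 2 and 4 and 54 lower with library size alone. Of 63 translation factor genes 18 were lower and 7 higher (10 lower without pool 4, 38 with library size alone), with Eif4a2 at -0.78 and the elongation factor Eef2 at 1.0. Of 37 proteasome genes 8 were lower and 2 higher (5 lower without pool 5, 27 with library size alone), and of 19 histone genes 2 were lower and 5 higher, with 0 to 3 lower and 3 to 5 higher when a pool was left out and a balance that turned to 6 lower and 1 higher with library size alone. Of 27 genes of tubulin, actin and neurofilament 6 were lower (2 without pool 1 or 4, 17 with library size alone) and 2 higher, the latter being the tubulin gene Tubb2b (1.32) and the tubulin-binding stathmin gene Stmn3 (0.93). Actb, the actin of dendritic spines, was not called (0.40, edgeR adjusted p = 0.162). With TMM, 24.8% of all genes tested were lower. Mitochondrial ribosomal protein, proteasome, histone and tubulin, actin and neurofilament genes did not exceed this share, and translation factor genes lay slightly above it. The share of histone genes that were higher was near the 25.8% of all genes tested.

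The same fractions of VGAT-TRAP mice, in which Cre is driven in GABAergic neurons, were separate animals and served as a comparison. There 5082 of 16178 genes were higher (31.4%) and 3924 lower (24.3%), with a median change of -0.02. Across 15909 genes tested in both lines the changes had a Pearson correlation of 0.932 and a Spearman correlation of 0.905, where genes are not independent replicates. Of 8235 genes called in the RBP4 line and tested in the VGAT line 8197 (99.5%) had the same sign. Sst changed by 2.08, Syp by 2.10, Snap25 by -1.01, Gad1 by -0.67, Camk2a by 1.03 and Malat1 by -1.28 in the VGAT line. The astrocyte list had a median of 2.02 and the splicing list of -0.46. In a fit of both lines, 0 of 16961 genes differed between the lines in their change at an edgeR adjusted p of at most 0.05, by the quasi-likelihood test or the likelihood ratio test, and 429 (2.53%) and 495 (2.92%) did so at an unadjusted p under 0.05. Where no gene differs, a share of about 0.05 is expected under that unadjusted threshold, and both shares lay below it. The estimated differences between the lines lay between -0.59 and 0.49 at the 5th and 95th percentiles of genes. A p above the threshold does not show that the lines were alike.

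**Figure D5:**
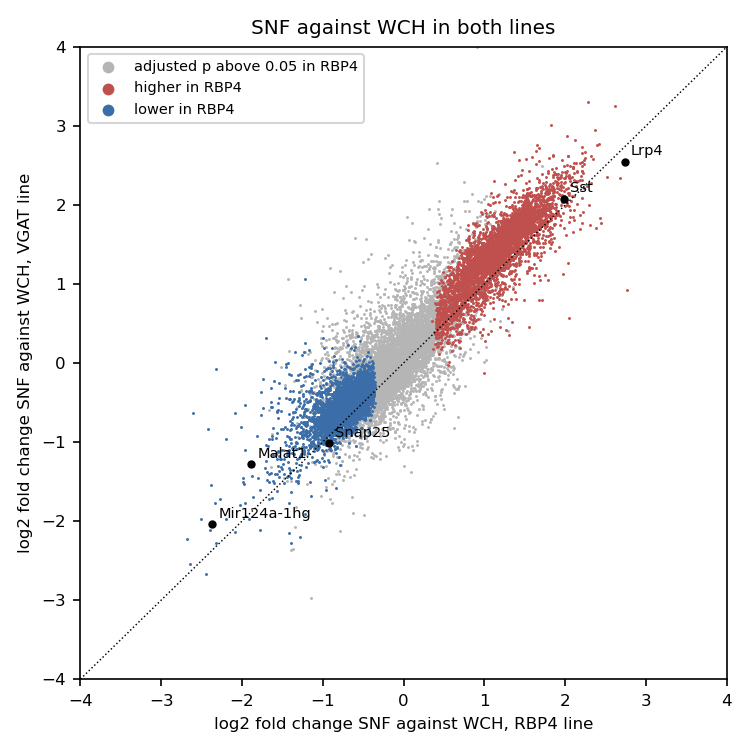
Log2 fold change of SNF against WCH in the RBP4 line (horizontal) and in the VGAT line (vertical), 1 point per gene tested in both, with the line of equality dotted. Points lie along the diagonal (Pearson correlation 0.932 over 15909 genes), and genes called higher in the RBP4 line sit mostly above 0 in the VGAT line and those called lower below it.

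Affinity-purified ribosome-bound RNA of the same pools was measured in the other 10 libraries of the line, which entered above only in the endothelial count from all 20. Of the genes higher in SNF than in WCH and tested in both, 88.0% of 4152 had a higher estimate in ribosome-bound RNA of the fraction (ST) than of the homogenate (TRAP), with a median log2 difference of 0.94. Of the genes lower in SNF 16.5% of 3976 did (median -0.73), and of those not called 47.5% of 7376 (median -0.07). Glial RNA was among the RNA higher in ST, with differences of 6.08 for Mbp and 5.21 for Gfap, so that these values are not those of the tagged neurons alone. The AMPA and NMDA receptor genes had a median of 0.94 and the splicing genes of -0.61, the astrocyte markers had 3.29, and the scaffold list, with a median of only 0.08 in SNF against WCH, had 0.73. Dlg4 and Shank3 had differences of 1.14 and 3.34, and Snap25 of -2.10. Complex I and mitochondrial ribosomal protein genes had medians of -0.88 and -1.10.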

How the data were processed

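RNA-seq files of 40 libraries were used, of which the 5 SNF and 5 WCH libraries of the RBP4 line make the main comparison. The authors aligned reads with STAR 2.0.4b and counted them per gene with featureCounts 1.4.5, per the labels, and the deposited counts are whole numbers without normalization. The deposited CPM values were made by the authors from the count and the library total, and the deposited RPKM values from CPM and gene length. These 2 columns served only as a check on the counts. The 41351 genes off the mitochondrial chromosome were kept, with symbols from GENCODE M21 for 40254 of all 41388 genes, 99.9% of which overlap their GRCm38 position. The build used by the authors is not given in the sources used here.

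Tests used edgeR 4.0.16 (TMM, glmQLFit, glmQLFTest; R 4.3.3) with pool and fraction as terms, on genes that reached 0.5 cpm in 3 or more of the 10 libraries. Standard errors are the absolute change divided by the square root of F. The methods describe each replicate as a pool, from which its samples were taken in parallel. Deviations from the group means correlated by -0.156 to 0.45 (mean 0.219) between SNF and WCH of the same pool and by -0.305 to 0.265 (mean -0.0544) between pools. Replicates of a group differed by at least 22.7 times the sampling noise (chi-square per degree of freedom), so that none repeated the counts of another. This measure does not show that they came from separate RNA. The depth of 10229452 to 17295318 counts off the mitochondrial chromosome makes 1 count worth 0.0578 to 0.0978 cpm. Counts cover reads without molecular identifiers.

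The lists and members were chosen with earlier results of these data known. Named genes are the 10 largest changes per direction (adjusted p at most 0.05, mean at least 5 cpm, groups not overlapping, named genes only), up to 3 rises, 3 falls and 2 uncalled genes per list, and 5 genes named by the study. Of the 106 named, 17 lie outside this rule and were chosen after their values were seen. A few withheld results are not reported here. Hydrophobic segments were counted without overlap. The tests were tried on simulated counts. Alternatives were no block, other size factors, DESeq2 1.42.0, a likelihood ratio test, other filters, the genes kept, all 20 libraries of the line and leaving out each pool. Other steps used Python 3.11.15, numpy 2.4.6, scipy 1.17.1 and pandas 2.3.3. The authors' lists of candidates were not used.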

Additional observations from a re-analysis of the deposited data

Results flagged for a closer look

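Chromosome MT, which was left out of the comparison, took 20.3% ± 11.4 of the counts in SNF against 6.57% ± 2.98 in WCH (SD, n = 5 each), higher in 5 of 5 pools (exact 2-sided permutation test within pools, p = 0.0625, the smallest that 5 pairs can give, so that this test cannot pass 0.05). With the pairing ignored, the exact 2-sided permutation test of 5 against 5 libraries gave p = 0.00794. That test treats the libraries as independent, although SNF and WCH shared pools, so it does not replace the paired test. The larger share in SNF is a signal in data outside the main measurement, above the 2.01% to 10% of the control libraries. SNF replicate 3 had 40.2%, far from the 11.2% to 18.8% of the other 4.

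The same library stood apart from the other 4 SNF libraries in 17 more values of named genes. Chance marks about 1 in 20 groups of 5, so some such values arise by chance among 106 named genes. The genes are not independent, so the 17 values cannot be set against that rate. SNF replicate 3 was the highest for Lrp4 (483 cpm), Sdc4 (2994 cpm), Sparc (3592 cpm), Sfxn5 (1485 cpm), Slc1a2 (22567 cpm) and Myom3 (29.2 cpm). It was also the highest for Cst3 (6904 cpm), Apoe (1782 cpm), Aldoc (12305 cpm) and S100b (1032 cpm), which are known from astrocytes. Genes of mitochondrial proteins followed, with Cox6a1 (1928 cpm), Cox4i1 (3167 cpm), Ndufb9 (1823 cpm) and Suclg2 (29.7 cpm), and so did Rplp1 (212 cpm) and Actb (10982 cpm). For the transcription factor gene Foxp2 it was the lowest, with 8.73 cpm against 22.3 to 26.4 cpm. All of these genes but Actb were called with and without pool 3, Actb in neither.

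In other libraries, SNF replicate 2 had Npy at 1175 cpm (others 486 to 662 cpm) and Kcnc1 at 258 cpm (others 112 to 143 cpm). SNF replicate 5 had Shank3 at 17.1 cpm, below the 25.3 to 27.5 cpm of the other SNF libraries. WCH replicate 1 had Malat1 at 29329 cpm, above the 12820 to 16860 cpm of the other WCH libraries.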

How the results depend on the processing

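With library size in place of TMM, 7614 genes were lower and the median change was -0.51, with 3099 genes higher. When each pool was left out in turn, 3603 to 4307 genes were higher and 2589 to 3499 lower, the lowest count being that without pool 4, and the median change was -0.15 to -0.086, the latter without pool 5. The cause of these shifts was not tested, apart from the fewer samples. Without the replicate block 4047 genes were higher and 3638 lower, and the block changed the call of none of the 106 named genes. The difference of the medians between genes with 2 to 5 and with 0 hydrophobic segments was 1.22 to 1.47 with a pool left out, 1.37 with a stricter hydropathy of 2.0 and 1.34 without glial and vascular markers, both chosen after seeing the data. The number of genes that differ between the lines stayed at 0 in each alternative run, including those that left out a replicate of either line. Among the 106 named genes, 99 kept direction and call in each alternative that tested them. The direction turned for Dlg4 (-0.20) and Cnp (-0.32) with library size, for Cnp without pool 3 (-0.047, with a range of -0.047 to 0.13 over the pools left out), and for Map2 with DESeq2's size factors in edgeR (0.031), with DESeq2 (0.031) and without pool 2 (0.096), pool 3 (0.027) or pool 5 (0.15), none of them called. Levels rest on 5 pools per group, and genes under 1 cpm on few counts.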
